A study of Mus musculus with 9 samples.

Results

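The keratin-associated protein genes (symbols beginning with Krtap and a number) encode the matrix proteins of the hair shaft. Every feature of the deposited table whose platform gene symbol matched that pattern was taken, which gave 50 genes among the 19505 named genes, each represented by 1 feature. Biotin-labelled RNA of dorsal skin was hybridised to Affymetrix arrays, and the mice were of the strain C57BL/6J and 8 weeks old. Hair had been removed from the back of all animals, and all skin received 5% imiquimod cream, an agonist of Toll-like receptor 7 that induces a psoriasis-like dermatitis in mice, daily for 7 days. In the stretch group (5 arrays) a glued plastic traction device had been elongated by 10 mm, and in the no-stretch group (4 arrays) the skin was not stretched. The protocol text does not say whether the no-stretch skin carried the device, how the hair was removed, or whether each array came from its own mouse. The p-values therefore cover the spread among these samples only, part of which may be technical. The comparison asks how stretching changes the inflamed skin. No skin without imiquimod was analysed here.

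Keratin-associated proteins fill the space between the keratin filaments of the hair cortex and cuticle and cross-link them through disulfide bonds. They are made late in the differentiation of the hair-forming cells above the matrix of a growing (anagen) follicle, after the hair keratins, and a resting (telogen) follicle makes no new shaft. The family is sorted by protein composition into high glycine-tyrosine, ultra-high sulfur and high sulfur proteins. Sorted here by family number from this general knowledge, 15 of the 50 genes were high glycine-tyrosine, 16 ultra-high sulfur and 17 high sulfur, and 2 genes, Krtap31-1 and Krtap31-2, were not assigned. In the RefSeq annotation of GRCm38.p6 the genes lie in clusters on 4 chromosomes, with 23 on chromosome 16, 20 on chromosome 11, 5 on chromosome 7 and 2 on chromosome 10.

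Promoter sequence from RefSeq (GRCm38.p6) was found for 46 of the 50 genes, and 5 promoters are shown because their genes carry the results below. Krtap6-5 and Krtap5-1 varied together across the arrays, Krtap21-1 varied with neither of them once a single array was set aside, and Krtap19-1 and Krtap19-3 had the smallest p-values of the family. Each sequence covers the 120 bases before the annotated start site, on the minus strand, written 5′ to 3′. The windows are chr16:89047900-89048019 for Krtap6-5, chr7:142297135-142297254 for Krtap5-1, chr16:89403775-89403894 for Krtap21-1, chr16:88869411-88869530 for Krtap19-1 and chr16:88878039-88878158 for Krtap19-3. Capitals mark matches to the motifs named after the sequences.
Krtap6-5: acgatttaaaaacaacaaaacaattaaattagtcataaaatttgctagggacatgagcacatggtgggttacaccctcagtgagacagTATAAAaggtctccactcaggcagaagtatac
Krtap5-1: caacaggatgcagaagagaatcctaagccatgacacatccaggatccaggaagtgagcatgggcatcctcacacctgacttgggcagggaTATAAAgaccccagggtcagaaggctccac
Krtap21-1: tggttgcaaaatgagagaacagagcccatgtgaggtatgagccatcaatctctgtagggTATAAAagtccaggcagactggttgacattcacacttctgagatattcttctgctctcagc
Krtap19-1: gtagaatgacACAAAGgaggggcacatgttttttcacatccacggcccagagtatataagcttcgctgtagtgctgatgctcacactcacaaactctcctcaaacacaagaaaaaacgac
Krtap19-3: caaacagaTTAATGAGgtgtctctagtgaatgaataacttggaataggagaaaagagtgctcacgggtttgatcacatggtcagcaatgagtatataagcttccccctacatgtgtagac

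The TATA box, searched as TATAAA on the gene's strand in the last 100 bases before the start site, was present in 36 of the 46 promoters (78.3%), against 3.80% of 32851 promoter entries of all genes. It began 32 bases before the start site in Krtap6-5, 30 bases in Krtap5-1 and 61 bases in Krtap21-1. Only the exact letters TATAAA were searched, so a TATA box of other spelling was not counted. The windows of Krtap19-1 and Krtap19-3 had no match, but both contain tatataa. Letters that match the binding site of LEF/TCF factors, which carry the Wnt signal in the hair matrix, were searched as CTTTGA or CTTTGT on both strands of the 250 bases before the start site. They were present in 23 of 46 promoters (50%), against 27.6% of all entries. The site of HOXC13, the homeodomain factor of hair-forming cells, was searched on both strands as TTAATNAA, TTAATNAG, TTAATNGA, TTAATNGG, TTTATNAA, TTTATNAG, TTTATNGA or TTTATNGG, which can overlap the reverse strand of a TATA box. It was present in 24 of 46 promoters (52.2%), against 17.2% of all entries. These are matches of letters and not shown to be bound, and many genes of the family are close copies, so their promoters are not independent of each other.

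The family was weakly measured in this skin. Averaged over the 9 arrays, the 50 genes lay between 2.56 and 8.39 on the log2 scale with a median of 3.60, and 41 lay below the median of all genes (6.03). Detection calls were not used here. As a guide to the values that an unexpressed gene takes on these arrays, the 1091 olfactory receptor genes, which skin is not known for and which were chosen as a guide after the data were seen, had a median of 3.29 and a 95th percentile of 4.67. Of the 50 keratin-associated protein genes, 34 lay at or below that percentile and 16 above it. Krtap21-1 lay just below it at 4.61 and Krtap6-1 just above it at 4.88. Probes differ in brightness, so the order of levels between genes is not an order of transcript amounts. Most genes also varied little: 24 of 50 spanned less than 1 log2 unit over all 9 arrays, and 5 spanned more than 2.

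The 16 genes of higher level came from all 3 classes. They comprised 7 ultra-high sulfur genes (Krtap4-2, Krtap4-7, Krtap4-8, Krtap5-1, Krtap5-4, Krtap9-1 and Krtap17-1), 6 high glycine-tyrosine genes (Krtap6-1, Krtap6-5, Krtap8-1, Krtap16-3, Krtap19-1 and Krtap19-3) and 3 high sulfur genes (Krtap1-3, Krtap3-2 and Krtap3-3). Krtap3-2 and Krtap3-3, neighbours on chromosome 11, were listed with identical values on every array, so the array does not separate them. Other members of this family of close copies may also share probe signal.

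The array of no-stretch replicate 3 stood apart and bears on the values below, on some much more than on others. It was the highest of the 9 arrays for 29 of the 50 keratin-associated protein genes (58.0%), against 16.4% of all genes and 54.8% of the olfactory receptor genes. The median of the olfactory receptor genes was 3.80 on that array and between 3.19 and 3.32 on the other 8. Its median correlation with the other arrays was the lowest (r = 0.9749, across genes). The weight that limma gave each array was lowest for stretch replicate 1 (0.5468), and next lowest for no-stretch replicate 3 (0.5793). Values of no-stretch replicate 3 exceeded the median of the other 8 arrays by 0.63 for the median keratin-associated protein gene and by 0.50 for the median olfactory receptor gene. For the median of all genes the excess was -0.01. For 3 of the 50 genes the excess was above 1.71, the 95th percentile of the olfactory receptor genes. By definition a similar share of the olfactory receptor genes lay above it. The 3 genes were Krtap6-5 (3.17), Krtap10-4 (1.85) and Krtap5-1 (1.78). Log2 changes are therefore also given without this array wherever they moved by a factor of 1.5 or more.

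**Figure D1:**
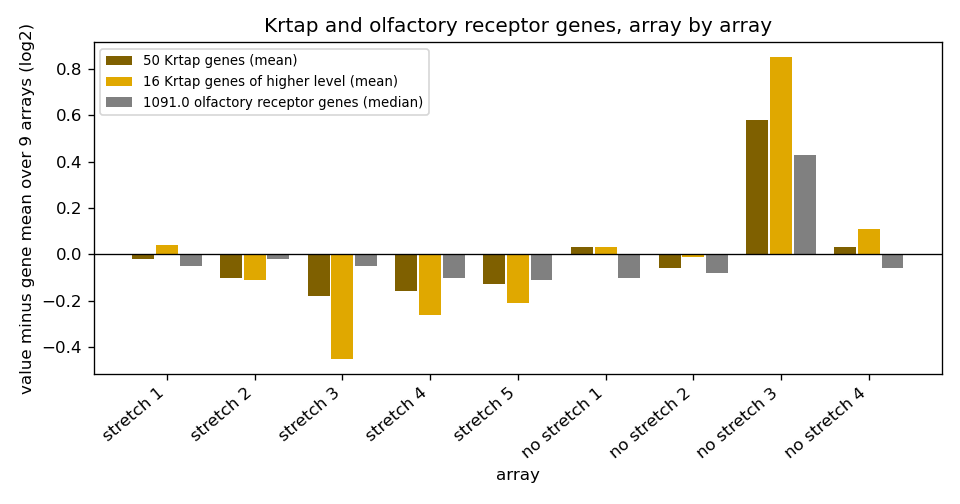
Value of each array minus the gene's own mean over the 9 arrays (log2), averaged over the 50 keratin-associated protein genes and over the 16 of higher level, with the median of the 1091 olfactory receptor genes in grey. No-stretch replicate 3 stands at 0.58, 0.85 and 0.43. Stretch replicates 2 to 5 and no-stretch replicate 2 lie below 0 for all 3 sets. Each gene's mean includes no-stretch replicate 3, so a high value there lowers the other arrays.

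No keratin-associated protein gene passed the test of stretch against no stretch. With limma's moderated test and Benjamini-Hochberg adjustment over 19505 genes at 0.05, 0 of 50 were called, where 48 of all genes were (0.246%). At an unadjusted p under 0.05 there were 7, all with lower means in stretched skin, which is to be read against 6.07% of all genes in that direction. The change was negative for 42 of the 50 genes, with a median of -0.19 and a range of -1.08 to 0.41 on the log2 scale, beside a median of -0.003 over all genes. The olfactory receptor genes were also mostly negative, 756 of 1091, with a median of -0.12. Without no-stretch replicate 3, 36 of 50 genes were negative with a median of -0.10, and 0 were called by limma. At an unadjusted p under 0.05 that fit had 4 lower genes, against 5.08% of all genes, and 1 higher gene, Krtap13. In that fit the median of the olfactory receptor genes was 0.03. Stretched and non-stretched arrays did not overlap for 1 gene, Krtap5-3, whose stretch values all lay below, against 2.15% of all genes. In bulk skin fewer shaft-forming cells and less RNA per cell cannot be told apart.

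**Figure D2:**
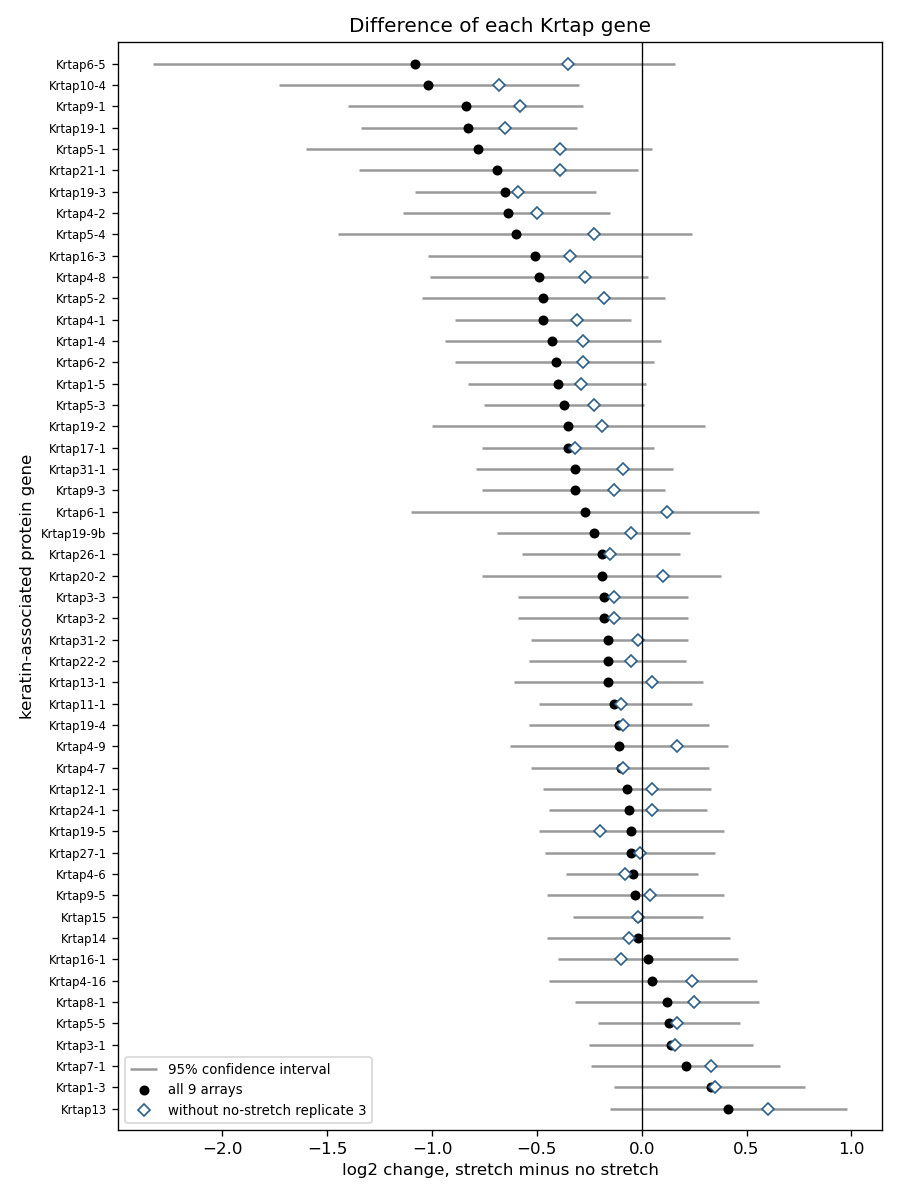
Log2 change (stretch minus no stretch) of each of the 50 genes with its 95% confidence interval from limma (grey lines), from all 9 arrays (black) and without no-stretch replicate 3 (open diamonds). Of the 50, 42 are negative with all arrays and 36 without that array.

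The high glycine-tyrosine proteins are small proteins that are abundant in the hair cortex of many mammals, and their genes lie together on chromosome 16. Of the 15, 13 had a negative change, the median was -0.27, and 0 were called. Without no-stretch replicate 3 the median was -0.19, with 11 negative.

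Krtap19-1 had the smallest p of the family. It was at 5.07, 4.72, 5.36, 4.65 and 4.93 in stretch replicates 1 to 5, against 5.51, 5.28, 6.32 and 5.99 in no-stretch replicates 1 to 4. The groups overlapped only through stretch replicate 3 and no-stretch replicate 2. The log2 change was -0.83 (standard error 0.24, limma adjusted p = 0.17), and it was -0.65 without no-stretch replicate 3 (adjusted p = 0.39). Krtap19-3 was at 6.51, 6.21, 6.04, 5.91 and 6.48 in stretched skin, against 7.03, 6.98, 7.08 and 6.43 in non-stretched skin. Here no-stretch replicate 4 was the low array, within the stretch range, while the other 3 lay above every stretched array. Its log2 change was -0.65 (standard error 0.20, limma adjusted p = 0.19), and -0.59 without no-stretch replicate 3, so it rested little on that array. The other 4 measured genes of family 19 had changes between -0.35 and -0.05 (-0.20 to -0.05 without that array), and all 4 had means below the olfactory receptor percentile.

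Krtap6-5 varied most of all 50 genes. It was at 7.25, 6.68, 5.75, 6.32 and 6.65 in stretched skin, against 6.54, 6.95, 9.83 and 7.14 in non-stretched skin. A single array, no-stretch replicate 3, stood 2.58 above the highest of the others, which overlapped between the groups. The log2 change of -1.08 (95% confidence interval -2.33 to 0.16, limma adjusted p = 0.45) was -0.35 without it. Krtap6-1 was also highest on that array, at 6.21, against 4.35 to 5.65 on the other 8. Its change was -0.27, and it was 0.12 without that array. Krtap16-3 averaged 5.97 ± 0.29 (SD, n = 5) in stretched and 6.48 ± 0.46 (SD, n = 4) in non-stretched skin, a log2 change of -0.51 (limma adjusted p = 0.39), and of -0.34 without no-stretch replicate 3. Krtap21-1, just under the olfactory receptor percentile, was at 4.04, 4.01, 4.40, 5.06 and 4.01 with stretch and at 4.73, 4.53, 5.88 and 4.81 without. Stretch replicate 4 lay inside the no-stretch range and the other 4 stretched arrays below it. The difference for Krtap21-1 was -0.69 on the log2 scale (limma adjusted p = 0.37), and -0.39 without no-stretch replicate 3 (adjusted p = 0.66). Krtap8-1 showed a change of 0.12 (0.25 without that array), with 5.11 ± 0.26 (SD, n = 5) in stretched and 4.99 ± 0.33 (SD, n = 4) in non-stretched skin.

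The ultra-high sulfur proteins, rich in cysteine, include families 4 and 9 of the cluster on chromosome 11 and family 5 on chromosome 7, whose human counterparts are known from the hair cuticle. Of the 16 genes 14 had a negative change, with a median of -0.36 (-0.21 without no-stretch replicate 3), and 0 were called. Krtap9-1 was at 5.36, 5.34, 5.21, 5.87 and 5.45 in stretched skin, against 6.33, 5.67, 7.05 and 6.09 in non-stretched skin. Only stretch replicate 4 exceeded the lowest no-stretch array. Its log2 change was -0.84 with a standard error of 0.26 (limma adjusted p = 0.20), and -0.58 without no-stretch replicate 3. Krtap4-2 averaged 6.05 ± 0.35 (SD, n = 5) in stretched and 6.69 ± 0.35 (SD, n = 4) in non-stretched skin, a log2 change of -0.64 (limma adjusted p = 0.25). Krtap4-8 averaged 6.91 ± 0.25 (SD, n = 5) in stretched and 7.39 ± 0.51 (SD, n = 4) in non-stretched skin, with 8.04 on no-stretch replicate 3. Krtap4-8 thus had a log2 change of -0.49 (limma adjusted p = 0.42), and -0.27 without that array (adjusted p = 0.72). Krtap4-7, of the same family, had a change of -0.10.

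Krtap5-1 was at 8.14, 7.77, 6.75, 7.42 and 7.25 in stretched skin, against 7.64, 7.63, 9.42 and 8.29 in non-stretched skin. The groups overlapped, and no-stretch replicate 3 was again the highest array. Its log2 change was -0.78 (95% confidence interval -1.60 to 0.05, limma adjusted p = 0.41), and -0.39 without that array. Krtap5-4 was at 5.25, 4.51, 4.27, 5.89 and 5.37 with stretch and at 5.26, 5.20, 6.78 and 5.40 without, so that the no-stretch arrays other than replicate 3 lay inside the stretch range. For Krtap5-4 the log2 change was -0.60 (limma adjusted p = 0.55), and -0.23 without that array. Krtap5-3, the only gene without overlap, spanned 3.12 to 3.35 with stretch and 3.35 to 4.06 without. Its lowest no-stretch array and highest stretched arrays differed by less than the rounding shown, and its level lay within the olfactory receptor range (log2 change -0.37, limma adjusted p = 0.41). The change of Krtap5-3 was -0.23 once no-stretch replicate 3 was left out (adjusted p = 0.69). Krtap17-1 had the highest mean of the family and spanned less than 1 log2 unit, at 8.09, 8.69, 7.86, 8.32 and 8.23 with stretch and 8.75, 8.57, 8.66 and 8.37 without. Its log2 change was -0.35 (95% confidence interval -0.76 to 0.06, limma adjusted p = 0.47), and -0.32 without no-stretch replicate 3.

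The high sulfur proteins, with less cysteine, comprise families 1 and 3 and Krtap16-1 on chromosome 11, families 10 and 12 on chromosome 10 and several genes on chromosome 16. Their median change was the smallest of the 3 classes: 13 of 17 had a negative change, the median was -0.07, and 0 were called. All but 3 lay at or below the olfactory receptor percentile. Krtap10-4 was the exception in size. It was at 4.54, 3.51, 3.34, 3.67 and 3.70 in stretched skin, against 4.53, 4.14, 5.77 and 4.63 in non-stretched skin. Stretch replicate 1 lay between no-stretch replicates 1 and 4, and the other 4 stretched arrays lay below every no-stretch array. Its log2 change was -1.02 with a standard error of 0.33 (limma adjusted p = 0.22), and -0.68 without no-stretch replicate 3. Krtap3-2 and Krtap3-3 together had a change of -0.18, with 6.12 ± 0.31 (SD, n = 5) in stretched and 6.31 ± 0.13 (SD, n = 4) in non-stretched skin. Krtap1-3 and Krtap13 had the largest positive changes of the family, 0.33 and 0.41 (limma adjusted p = 0.54 for each).

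The genes of the family varied together across arrays mainly through no-stretch replicate 3. Over the 1225 pairs of genes the median Pearson correlation across the 9 arrays was 0.30, and 71.0% of pairs were positive. Without that array the median was 0.06, with 53.7% positive over 8 arrays. The olfactory receptor genes gave nearly the same figures, 0.25 with all arrays and 0.02 without that one. Among the 16 genes of higher level the median was 0.49 with all arrays, 0.30 after each group's mean was subtracted and 0.25 without no-stretch replicate 3. These correlations are descriptions. The genes share each array's RNA, labelling and normalization, and no p is given.

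A closer likeness held between Krtap6-5 on chromosome 16 and Krtap5-1 on chromosome 7. This and the following pairs were chosen after the values were seen. Their correlation was 0.95 over the 9 arrays and 0.91 over the 8 without no-stretch replicate 3. In both genes stretch replicate 3 was the lowest array, and stretch replicate 1 was the highest stretched array. Krtap9-1 and Krtap21-1 correlated at 0.90, and at 0.75 without that array. Krtap6-5 and Krtap21-1, both high glycine-tyrosine genes of chromosome 16, correlated at 0.68 with it and at -0.18 without it. Krtap5-1 and Krtap21-1 correlated at 0.64 with it and at 0.04 without it.

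**Figure D3:**
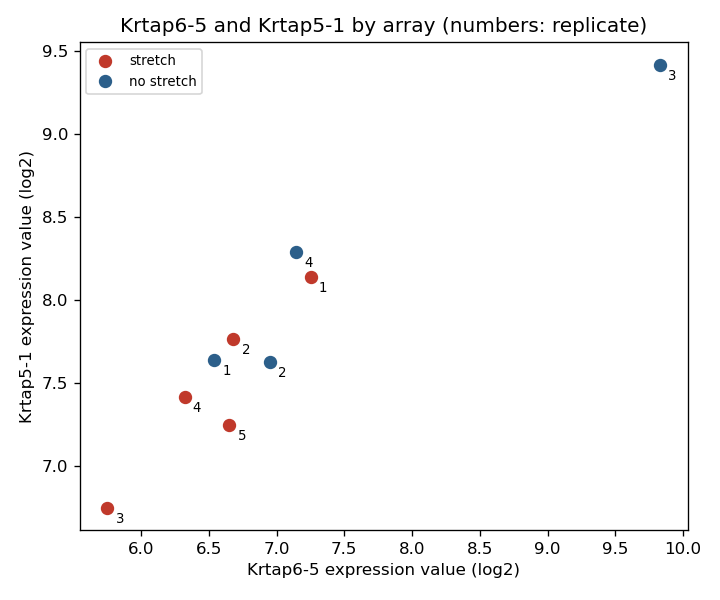
Expression values (log2) of Krtap5-1 against Krtap6-5 on the 9 arrays, red for stretch and blue for no stretch, with replicate numbers. The points rise together (r = 0.95, and 0.91 without no-stretch replicate 3), and the groups are intermixed apart from no-stretch replicate 3 at 9.83 and 9.42.

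The genes most like the family's mean profile over the 9 arrays were Tmem267 (r = 0.981), Olfr482, Olfr358, Vmn1r88, Vmn2r32, Insrr, Gm5458, Olfr1389, Gm21671, Cdpf1, Cstad and V1ra8 (r = 0.971 for the last 2). Of these 12 genes, 6 are olfactory or vomeronasal receptors, and all 12 had r between 0.723 and 0.905 without no-stretch replicate 3. Against the mean profile of only the 16 genes of higher level, a choice made after the values were seen, Lrrc45 ranked first (r = 0.984) and Shh second at r = 0.981 (0.915 without that array). Of the 12 genes most like that profile, 5 are olfactory or vomeronasal receptors, and 8 lay at or below the olfactory receptor percentile, Lrrc45 among them. Shh encodes Sonic hedgehog, a signal made by the hair matrix. It was picked by its correlation, and the value over 8 of the same arrays is no independent check. With the whole family's mean profile over the 9 arrays, Shh had r = 0.97. The other measured regulators of the hair matrix ranged from -0.28 (Wnt5a) to 0.76 (Dlx2). Shh was at 7.28 ± 0.19 (SD, n = 5) in stretched and 7.62 ± 0.39 (SD, n = 4) in non-stretched skin, with 8.20 on no-stretch replicate 3. The log2 change of Shh was -0.35 (limma adjusted p = 0.50), and -0.16 without that array (adjusted p = 0.80).

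The hair keratins, which form the filaments that the keratin-associated proteins embed, were mostly dim as well. Of 16 listed keratins of cortex and cuticle, 12 were measured. Only 3 of the 12 had a mean above the olfactory receptor percentile, their levels reached at most 5.45, 8 had a negative change and 0 were called. Krt31, a cortex keratin, averaged 4.60 ± 0.22 (SD, n = 5) in stretched and 4.89 ± 0.22 (SD, n = 4) in non-stretched skin. Krt35, a keratin that begins in the hair matrix, was at 3.40, 3.47, 3.0, 2.52 and 3.19 in stretched skin, against 3.64, 5.03, 4.27 and 3.68 in non-stretched skin. The groups did not overlap, but the log2 change of -1.04 did not pass (limma adjusted p = 0.17). The mean of Krt35 over the 9 arrays, 3.58, lay within the olfactory receptor range. Of the 12 keratins 4 had a positive change, the largest of Krt32 (0.30, limma adjusted p = 0.50). Hoxc13, a regulator of hair keratin genes, averaged 3.33 ± 0.33 (SD, n = 5) in stretched and 3.49 ± 0.25 (SD, n = 4) in non-stretched skin, within the olfactory receptor range. Msx2, Lef1 and Dsg4, the first 2 regulators of the hair matrix and the last a desmosomal cadherin of the shaft, lay there as well, with changes of -0.05, -0.22 and 0.30. Foxn1, the nude factor of hair differentiation, was at 5.43 with stretch and 5.64 without. Padi3, which modifies trichohyalin, showed a change of 0.06 (0.10 without no-stretch replicate 3). A list of other shaft and cuticle genes was brighter, with 14 of 18 measured genes above the olfactory receptor percentile, and 0 were called. The rest, Dsg4, Gprc5d, Dlx4 and Prr9, had means of 3.38, 2.47, 2.84 and 3.86 over the 9 arrays. Which cells of the bulk skin gave the brighter signals, such as S100a6 (12.86) and Lap3 (11.23), was not tested. The brightness of this list is therefore no measure of shaft transcripts alone.

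The inner root sheath keratins are made by the layer that surrounds the growing shaft. Of 17 listed genes of sheath and medulla 10 had a negative change, with a median of -0.15 (-0.003 without no-stretch replicate 3). Beside 0.246% of all genes called, 1 of the 17 passed, Krt73, which fell in stretched skin. It was at 5.40, 5.26, 5.50, 4.85 and 4.81 with stretch and at 6.57, 8.01, 7.61 and 6.29 without, with no overlap. It was 3.88-fold lower (log2 change -1.96, standard error 0.33, limma adjusted p = 0.044), and the log2 change was -1.79 with adjusted p = 0.14 without no-stretch replicate 3. The call was lost on leaving out 7 of the 9 arrays singly (limma adjusted p of 0.033 to 0.14 over the 9 omissions), and with all features tested (adjusted p = 0.051). Krt28 had a log2 change of -2.01 (limma adjusted p = 0.055), Krt25 of -1.79 (adjusted p = 0.14) and Krt71 of -1.54 (adjusted p = 0.22), and trichohyalin (Tchh) of -1.08 (adjusted p = 0.32). The other 4 keratins of the list, Krt26, Krt27, Krt72 and Krt75, had changes of -0.23, -0.20, -0.15 and -0.06 (all between -0.17 and 0.01 without no-stretch replicate 3). The list also had 7 positive changes, the largest of Cryab (1.14, limma adjusted p = 0.23) and Ctsl (0.71, adjusted p = 0.43). Whether sheath and shaft genes differ in their change was not tested.

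Among 29 measured regulators of the hair matrix 23 had a negative change, with a median of -0.21, and 0 were called. The median was -0.13 without no-stretch replicate 3, and -0.10 with 19 negative when the arrays were centred on the olfactory receptor genes. The largest were Ptch1, the Hedgehog receptor and target (log2 change -1.55, limma adjusted p = 0.077), and Dlx3, a homeobox factor of the shaft (-1.22, adjusted p = 0.094). Of 18 catagen, telogen and stem cell genes 16 had a negative change, with a median of -0.38. Their list means did not overlap between the groups (6.40 to 6.69 with stretch, 7.02 to 7.37 without). Beside 0.246% of all genes called, 2 of the 18 passed and both fell, Cd34 (-1.60, limma adjusted p = 0.0046) and Lhx2 (-2.28, adjusted p = 0.029). Which cells of the bulk skin gave the Cd34 signal, 12.20 with stretch and 13.81 without, was not tested. Of 14 melanocyte genes 11 had a negative and 3 a positive change, with a median of -0.39. Their list means did not overlap either (4.40 to 4.69 with stretch, 5.01 to 5.24 without). Beside the same share of all genes, 2 of the 14 passed and both fell, Pmel (-1.40, limma adjusted p = 0.026) and Dct (-2.25, adjusted p = 0.031). The pigment of melanocytes enters the shaft in a growing follicle. Of these 4 genes that passed, Cd34 alone did so without no-stretch replicate 3 (limma adjusted p = 0.022), and it alone passed on leaving out each of the 9 arrays in turn. The calls were lost in 6 of the 9 omissions for Lhx2, 6 for Pmel and 5 for Dct. The other lists of the shaft (18 genes measured) and of the dermal papilla (17) had 0 called and medians of -0.005 and 0.07 (0.03 and 0.05 without that array). In the shaft list 9 genes had a positive and 9 a negative change, from -1.05 (Lrrc15, limma adjusted p = 0.062) to 3.91 (Dsc2, adjusted p = 0.061). Without no-stretch replicate 3 Dsc2 had a change of 2.88 (adjusted p = 0.053). Prr9, a dim gene, had a change of 1.14 (adjusted p = 0.069). In the papilla list 9 were positive and 8 negative, from -1.40 (Lepr, adjusted p = 0.094) to 1.81 (Fgf7, adjusted p = 0.12).

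Markers of other cell types were measured beside these. The keratinocyte gene Krt14 was at 19.53 with stretch and 18.97 without, and skeletal muscle genes were high in every array, with list means of 13.29 to 15.42 with stretch and 14.26 to 15.09 without. With stretch against without, list means were 9.22 to 10.34 against 10.48 to 11.02 for adipocyte genes, 8.02 to 8.90 against 8.91 to 9.86 for sebocyte genes and 9.55 to 10.67 against 8.08 to 8.98 for neutrophil genes, and in these 3 lists the groups did not overlap. Interfollicular differentiation genes lay at 13.58 to 15.26 against 14.92 to 15.60, basal keratinocyte genes at 14.36 to 14.95 against 13.96 to 14.79 and cell cycle genes at 9.29 to 10.38 against 9.27 to 9.65. In each of these 7 lists 0 genes were called. Their part in the values of the keratin-associated protein genes was not tested.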

How the data were processed

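The authors deposited log2 expression values (22206 features, 9 arrays). Per the submitters' processing notes, RMA and Transcriptome Analysis Console were used, with no version given. RMA quantile-normalizes and compresses low values, so fold changes of dim genes are understated. Genome build and filters: not given in the sources used here. Groups came from the sample titles. The platform table named 19572 features; the feature of highest mean represented each of 19505 genes. Differences (stretch minus no stretch) were fitted over all genes in limma 3.58.1 (lmFit, eBayes, R 4.3.3), two-sided, Benjamini-Hochberg at 0.05. The fit was tested on simulated data whose planted changes were larger than any of the family's. That test does not show how well smaller changes are found. The number of arrays limits the precision. Proteins were not used here, so classes were assigned by family number instead of composition.

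Members and lists were chosen with earlier results of these data known. The members described were the 4 of highest mean per class, the 4 of largest SD, the 4 of smallest p and those with an outlying array, here 19; Krtap4-7, Krtap5-3, Krtap6-1, Krtap8-1, Krtap13, Krtap21-1 and Shh were added after their values were seen. Other genes were preset, or among the 4 of smallest p in their list, though not all such genes are described. Further genes were named for their correlation with the family, or to give a list's range, brightest signals or remaining members. Alternatives covered scaling, a filter on dim genes, feature averaging, all features, the variance model, array weights, a replicate block, thresholds and leaving out each array; centring on olfactory receptor genes and the joint omission of no-stretch replicate 3 with median centring were added after seeing the data.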

Additional observations from a re-analysis of the deposited data

Results flagged for a closer look

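In 7 of 100 groups of arrays (50 genes in 2 groups) 1 array lay far from the others of its group by Dixon's criterion, where chance gives about 1 in 20. All 7 were in the no-stretch group. No-stretch replicate 3 was the high array in 4 of them. It was at 6.78 for Krtap5-4, against 5.20 to 5.40 on the other no-stretch arrays, at 4.82 for Krtap4-9 (3.62 to 3.80), at 3.54 for Krtap12-1 (3.06 to 3.09) and at 2.89 for Krtap11-1 (2.77 to 2.79). The other 3 were low arrays. No-stretch replicate 4 was at 6.43 for Krtap19-3 (6.98 to 7.08), no-stretch replicate 1 at 2.52 for Krtap5-5 (2.87 to 2.93) and no-stretch replicate 2 at 2.90 for Krtap9-5 (3.61 to 3.74). Of these genes Krtap5-4 and Krtap19-3 had means above the 95th percentile of the olfactory receptor genes.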

How the results depend on the processing

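In none of 20 alternative fits did limma call a keratin-associated protein gene; the lowest adjusted p was 0.10, for Krtap19-1. At an adjusted p of 0.1 the count stayed at 0, and at an unadjusted p of 0.05 it was 7. The filter on dim genes kept 23 of 50. The median change stayed negative throughout, from -0.51 (the 9 genes above the median of all genes) to -0.06 (no-stretch replicate 3 left out with median centring), and leaving out single arrays gave -0.24 to -0.10. Centred on the olfactory receptor genes it was -0.08, with 32 of 50 negative, where the median of all genes was 0.10. With the replicate number as a block it was -0.18 and 0 were called; deviations of same-numbered arrays correlated at -0.062 to 0.343 and 2 of 8 arrays correlated best with their own number, so the numbers were not taken as pairs. Among all genes the count of 48 became 75 after quantile normalization, 105 with the filter on dim genes, 157 with array weights, 221 with the replicate block and 3 with no-stretch replicate 3 left out and median centring, and 2 to 195 without single arrays. Of 376 values of the 19 members under alternatives 359 kept their direction. The sign turned for Krtap12-1 (0.00 with the block, 0.09 with no-stretch replicate 3 left out and median centring, 0.04 by olfactory centring, -0.15 to 0.05 without single arrays), Krtap4-9 (0.02 with array weights, 0.21 with no-stretch replicate 3 left out and median centring, -0.23 to 0.17 without single arrays) and Krtap9-5 (0.03 by quantile normalization, 0.01 by median centring, 0.02 with the block, 0.08 with no-stretch replicate 3 left out and median centring, 0.08 by olfactory centring, -0.22 to 0.06 without single arrays). It also turned for Msx2 (0.05 with the block, 0.00 with no-stretch replicate 3 left out and median centring, 0.05 by olfactory centring, -0.17 to 0.05 without single arrays) and Padi3 (-0.04 to 0.22 without single arrays). The cause was not tested. Signal near the olfactory receptor level limits 34 of 50 genes.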
